A study of Mus musculus with 11 samples.

Results

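The apolipoproteins and the factors that assemble and remodel lipoproteins were followed in mouse liver through 10 genes, Apoa1, Apoa4, Apoa5, Apob, Apoc3, Apoe, Apof, Apom, Mttp and Lcat, which were taken by symbol from the 20893 rows of a bulk RNA-seq table. All 10 were present, and all 10 passed the filter on low values that left 14244 genes for testing. The table held 11 livers of mice on a C57BL/6 background that all carried ROSA26-rtTA-IRES-EGFP, an allele that makes the doxycycline-dependent activator rtTA after Cre recombination. The 4 control livers (WT in the labels, without tetYAP) and 3 of the 7 tetYAP livers came from mice given doxycycline food for 7 days, and the other 4 tetYAP livers from mice given it for 3 days. In the tetYAP mice doxycycline switched on a constitutively active YAP that lacks an inhibitory phosphorylation site, and Alb-CRE, driven by the albumin promoter, directed this to hepatocytes. Whether the controls also carried Alb-CRE, and the age and sex of the mice, were not given in the sources used here. Each library was made from the whole tissue, so fewer hepatocytes and less RNA per hepatocyte could not be told apart in any value below.

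The liver exports triglyceride and cholesterol as very low density lipoprotein (VLDL), a particle built around a single apoB molecule onto which the microsomal triglyceride transfer protein, the product of Mttp, loads lipid in the endoplasmic reticulum. It also secretes apoA-I, on which high density lipoprotein (HDL) forms, and LCAT, the plasma enzyme that esterifies the cholesterol of HDL. The smaller apolipoproteins steer these particles: apoE is a ligand of the LDL receptor family, apoC-III slows and apoA-V speeds the lipolysis of triglyceride, and apoM carries sphingosine-1-phosphate.

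At 7 days of YAP induction, 2 of the 10 genes passed the test against the controls, and both were lower: Mttp by 0.80 and Lcat by 0.82 on the log2 scale. Of all genes tested, 5.77% were called lower and 18% higher there. At 3 days 0 of 10 passed, beside 0% of all genes called lower and 0.0421% called higher. Among the 4 controls, Mttp and Lcat also ran inversely to the size of the library. The other 8 genes also had lower mean values at 7 days, but for the most abundant of them (Apob, Apoe, Apoa1, Apoc3, Apoa5) the value ran inversely to the size of the library over the 11 livers, and the 7-day libraries were among the largest. Apoa4, of lower abundance, was below all controls in every 7-day liver and missed the threshold, with a wide spread between livers.

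The values are eRPKM, the authors' read counts divided by exon length and by library size (RPKM). They step in whole reads, and dividing the steps out gave a read total for each library: 4016529, 5670838, 2481022 and 1289038 for controls 1 to 4, between 2746582 and 3794700 for the 3-day livers, and between 5473567 and 6130510 for the 7-day livers. The largest library thus held 4.76 times the reads of the smallest, whereas the highest number of reads per kilobase on any gene rose only from 1320 to 1549, a factor of 1.17. The gene at that level was Apoe, Apob, Apoa1, Apoa2 or Rpph1. A gene whose reads stay at this level has a lower eRPKM in a larger library. How duplicate reads were treated in these libraries is not given in the sources used here, and the reason for the upper level was not tested. As a check of the labels, the YAP targets Ankrd1, Ctgf and Cyr61 were higher in each 7-day liver than in every control, with Cyr61 at 90.5 to 91.3 eRPKM against 5.76 to 14.3. At 3 days Cyr61 (26.8 to 53.4) and Ctgf (15.3 to 34.2 against 5.20 to 14.2) were also above every control. Ankrd1, at 0 to 0.299 eRPKM, was below every control (0.457 to 0.879) at 3 days. The Yap1 row stood at 18.2, 16.8 and 18.4 eRPKM (means of control, 3-day and 7-day livers), but whether transgene reads are counted in that row is not given. In 7 libraries Xist exceeded Ddx3y: 2 controls, 2 at 3 days and all 3 at 7 days.

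The genes Apoa1, Apoc3, Apoa4 and Apoa5 lie together on chromosome 9 (mm9, the build of the files), within 43340 bases: Apoa1 at chr9:46036663-46038549 (plus strand), Apoc3 at chr9:46041016-46043719 (minus), Apoa4 at chr9:46048779-46051542 (plus) and Apoa5 at chr9:46076716-46080002 (plus). The others are spread over the genome: Apob at chr12:7984454-8023641 (plus), Mttp at chr3:137752819-137806352 (minus), Lcat at chr8:108463451-108467282 (minus), Apoe at chr7:20281458-20284515 (minus), Apof at chr10:127705053-127707207 (plus) and Apom at chr17:35265942-35268995 (minus). Lcat overlaps Gm16156 and Apoa4 overlaps Gm10680, each on the opposite strand, and the libraries did not mark strand, so reads of these partners could not be told apart. The RefSeq promoter table (GRCm38.p6) matched 8 of the 10 genes by symbol, all but Apoc3 and Apof. The 250 bases before the RefSeq start are shown for the genes on which the results turn. These are Mttp and Lcat, which passed the test, Apoa4, whose values ran least with library size, and Apob, the reference of the assembly step. The RefSeq start lay 148 bases inside Apoa4 and 29 bases inside Apob as located above. The last 148 bases of the Apoa4 window, with its GGAATG match, thus fall within the annotated gene. For Mttp and Lcat the start lay 30 and 20 bases before the annotated gene. Capitals mark matches, on either strand, to CAAAGNNCA, a spelling of sites of the hepatocyte factor HNF4, or to GGAATG, the core bound by the TEAD partners of YAP; these 2 motifs do not overlap in any of the windows shown. Each run is printed from 5′ to 3′ in the direction of the gene and matched mm9 once.
Mttp promoter (chr3:137806383-137806632, minus strand): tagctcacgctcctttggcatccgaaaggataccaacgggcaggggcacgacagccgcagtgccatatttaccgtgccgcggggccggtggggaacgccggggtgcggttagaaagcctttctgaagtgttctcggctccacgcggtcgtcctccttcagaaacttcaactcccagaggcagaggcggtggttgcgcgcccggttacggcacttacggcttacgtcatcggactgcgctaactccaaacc
Lcat promoter (chr8:108467303-108467552, minus strand): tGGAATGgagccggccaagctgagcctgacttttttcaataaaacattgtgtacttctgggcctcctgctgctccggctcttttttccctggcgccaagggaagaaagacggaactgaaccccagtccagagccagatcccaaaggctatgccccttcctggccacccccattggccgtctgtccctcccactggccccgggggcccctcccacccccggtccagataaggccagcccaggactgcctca
Apoa4 promoter (chr9:46048677-46048926, plus strand): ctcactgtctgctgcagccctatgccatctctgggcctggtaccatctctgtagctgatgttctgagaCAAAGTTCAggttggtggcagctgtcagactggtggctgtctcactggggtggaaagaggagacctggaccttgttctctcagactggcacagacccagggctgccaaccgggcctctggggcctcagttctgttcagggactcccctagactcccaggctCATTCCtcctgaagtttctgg
Apob promoter (chr12:7984233-7984482, plus strand): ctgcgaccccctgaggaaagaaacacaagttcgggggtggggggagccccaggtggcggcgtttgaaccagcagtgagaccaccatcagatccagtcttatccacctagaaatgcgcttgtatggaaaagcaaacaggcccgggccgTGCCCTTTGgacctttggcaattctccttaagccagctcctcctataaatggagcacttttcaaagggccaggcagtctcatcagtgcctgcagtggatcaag
CAAAGNNCA stood in the windows of Apoa4 and Apob and in 5.49% of all 32851 promoters of the table. GGAATG stood in those of Apoa4, Lcat and 1 of the 3 Apoe entries, and in 12.6% of all promoters. The Mttp window held neither spelling. These matches describe letters and not bound sites.

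Mttp, the gene of VLDL lipid loading, stood at 108, 105, 124 and 134 eRPKM in controls 1 to 4, at 94.8, 109, 93.1 and 108 in 3-day livers 1 to 4, and at 74.3, 58.6 and 70.2 in 7-day livers 1 to 3. Every 7-day liver was below every control and every 3-day liver, whereas the 3-day livers overlapped the controls. The means were 118 ± 13.7 (SD, n = 4), 101 ± 8.57 (n = 4) and 67.7 ± 8.17 (n = 3). On the log2(eRPKM + 0.5) scale, used for every fold change here, Mttp fell at 7 days by 42.5% (log2 fold change -0.80 ± 0.15, SE, n = 4 and 3; adjusted p = 0.00104, limma, Benjamini-Hochberg over all genes tested). A gene is called where this p is under 0.01 and the log2 fold change exceeds 0.5 in size. Between 3 and 7 days the log2 fold change was -0.58 ± 0.15 (adjusted p = 0.00882), and this call was lost when any 3-day liver but the third, or any 7-day liver, was left out (adjusted p up to 0.0507). At 3 days against control it was -0.22 ± 0.14 (adjusted p = 0.549). Mttp lay well under the upper level, at 13.1% to 38.6% of the highest reads per kilobase of its library. Among the 4 controls Mttp still ran inversely to library size (Pearson correlation of -0.977 with log2 depth). In the libraries of nearest size, control 2 and 7-day livers 1 and 3, it had 2636 reads against 1809 and 1695, and its eRPKM was 29.5% and 33.4% lower. Against the 2 deepest controls alone (controls 1 and 2) the log2 fold change was -0.66 (adjusted p = 0.00904), and with log2 depth as a covariate it was -0.64 (adjusted p = 0.00754). Quantile normalization, which gives every library the same distribution of values, left -0.51 (adjusted p = 0.00162), and cyclic loess left -0.40 (adjusted p = 0.00865), under the fold limit.

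Lcat, the acyltransferase that forms cholesteryl esters on HDL, gave 177, 175, 207 and 218 eRPKM in the controls, 141, 183, 167 and 164 at 3 days, and 118, 96.9 and 115 at 7 days. The 7-day livers did not overlap with either other group. Among the 4 controls Lcat ran inversely to library size (Pearson correlation of -0.955 with log2 depth). The means were 194 ± 21.3 (SD, n = 4), 164 ± 17.4 (n = 4) and 110 ± 11.3 (n = 3), and the fall at 7 days was 43.3% (log2 fold change -0.82 ± 0.15, limma adjusted p = 0.00107). Between 3 and 7 days Lcat differed by -0.57 ± 0.15 and missed the threshold (adjusted p = 0.0111). In control 2 and 7-day livers 1 and 3 it had 1351, 886 and 856 reads, which put its eRPKM 32.7% and 34.4% below that control. The 2 deepest controls alone gave -0.68 (adjusted p = 0.00754) and the depth covariate -0.69 (adjusted p = 0.00557), but quantile normalization reduced the difference to -0.32 (adjusted p = 0.109) and cyclic loess to -0.21 (adjusted p = 0.265). Mttp and Lcat both stayed called at 7 days when any single liver was left out (adjusted p from 0.0014 to 0.0087). Across the 11 livers the log2 values of Mttp and Lcat had a Pearson correlation of 0.981, the highest of Lcat or Mttp with any member; the points share library size and group.

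Apoa4, an apolipoprotein of HDL and of the particles made by intestine and liver, stood at 93.8, 148, 142 and 102 eRPKM in the controls, at 69.3, 124, 123 and 196 at 3 days, and at 78.9, 39.8 and 89.8 at 7 days. All 7-day livers were below all controls, but the 3-day livers ran from below to above that range. The log2 fold change at 7 days was -0.86 ± 0.34 (limma adjusted p = 0.0636), and without 7-day liver 2 it was -0.50 (adjusted p = 0.286). In libraries of similar size, control 2 against 7-day livers 1 and 3, there were 1400 reads against 726 and 819, and the eRPKM was 46.7% and 39.4% lower. Apoa4 also varied with the sex markers. The 2 controls with more Xist had 142 and 148 eRPKM and the other 2 had 93.8 and 102, and at 3 days the respective pairs, 123 and 196 against 69.3 and 124, overlapped. Within the 7 libraries with more Xist the log2 fold change at 7 days was -1.14 ± 0.34 (adjusted p = 0.0339), and with Xist as a covariate it was -1.09 ± 0.32 (adjusted p = 0.0208), still above the threshold of 0.01. Fabp2, the 1 enterocyte marker of 5 that passed the filter on low values, was at 34.3 to 46.5 eRPKM at 7 days against 81.4 to 131 in controls, while the enterocyte genes Cdx1 (0 in all 11 livers), Cdx2 (at most 0.304), Sis (at most 0.351) and Vil1 (at most 0.733 eRPKM) were at or near 0.

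**Figure D1:**
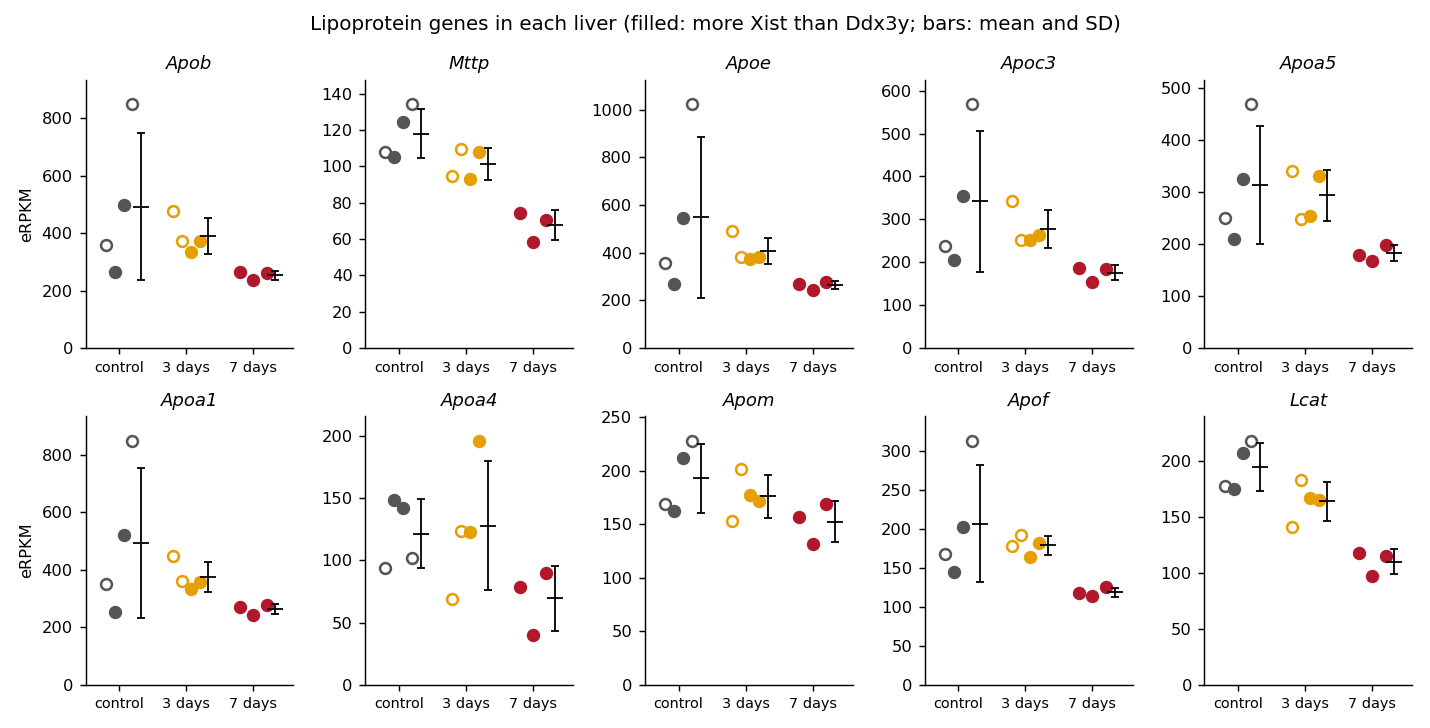
Normalized level (eRPKM, linear axis from 0) of the 10 genes in each of 4 control, 4 three-day and 3 seven-day livers; filled points are libraries with more Xist than Ddx3y, and the bars beside them give the mean and SD. Mttp (58.6 to 74.3) and Lcat (96.9 to 118) at 7 days lie below all livers of the other groups, whereas Apob, Apoe, Apoa1 and Apoc3 spread most among the controls.

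Apob, the structural protein of VLDL, Apoe and Apoa1 were the 3 most abundant members per length in every group. Apob read 360, 265, 496 and 849 eRPKM in controls 1 to 4, 478, 371, 334 and 374 at 3 days, and 264, 236 and 262 at 7 days. The control values thus ran inversely to library size, the smallest library giving 849 and the largest 265. In reads per kilobase the same gene varied by a factor of 1.38 over all 11 livers, Apoa1 by 1.39 and Apoe by 1.15. Apoe averaged 549 ± 337 eRPKM in controls and 264 ± 16.7 at 7 days, and Apoa1 494 ± 261 and 264 ± 18.2 (SD, n = 4 and 3), differences of -0.87 ± 0.35 and -0.76 ± 0.32 on the log2 scale that did not pass (limma adjusted p = 0.0655 and 0.0766). That of Apob was -0.82 ± 0.31 (adjusted p = 0.0522). Side by side with control 2, 7-day livers 1 and 3 had 0.473% and 1.39% less Apob. Their Apoe was 271 and 276 eRPKM against 267 and their Apoa1 272 and 277 against 255. Against the 2 deepest controls alone the changes were -0.28 (Apob), -0.23 (Apoe) and -0.18 (Apoa1), and with depth as a covariate -0.066, 0.0032 and 0.023. For these 3 genes library size and induction cannot be told apart.

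Apoc3 and Apoa5, which act in opposite directions on triglyceride lipolysis, lay below them, at 55.5% to 75.0% and 45.8% to 86.1% of the highest reads per kilobase of their libraries. Apoc3 gave 239, 205, 355 and 568 eRPKM in the controls, 342, 252, 252 and 265 at 3 days, and 187, 155 and 184 at 7 days (log2 fold change -0.85 ± 0.29, limma adjusted p = 0.0339). For Apoa5 the values were 251, 210, 324 and 469, then 341, 248, 254 and 331, then 179, 168 and 198 (log2 fold change -0.72 ± 0.24, adjusted p = 0.0337). Both sets of 7-day livers lay below all controls and all 3-day livers without passing the threshold. The distance to control 2 was small: 8.78% and 10.2% less Apoc3 and 15.0% and 5.64% less Apoa5 in 7-day livers 1 and 3. The levels of these genes did not separate from each other, since Apoc3 exceeded Apoa5 in 2 of 4 controls and 2 of 4 livers at 3 days, and Apoa5 exceeded Apoc3 in 2 of 3 at 7 days.

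Apof, a minor apolipoprotein of LDL and HDL, stood at 168, 145, 202 and 314 eRPKM in the controls, 178, 192, 164 and 182 at 3 days, and 118, 114 and 125 at 7 days. Its 7-day livers were below all others, with a log2 fold change of -0.74 ± 0.22 (limma adjusted p = 0.0179) that was -0.39 against the 2 deepest controls. Apom, the sphingosine-1-phosphate carrier, had the smallest difference of the 10 at 7 days, with 169, 163, 211 and 228 eRPKM in the controls, 153, 201, 178 and 172 at 3 days, and 156, 131 and 169 at 7 days. Its groups overlapped in every comparison, and the log2 fold change at 7 days was -0.33 ± 0.17 (adjusted p = 0.139). Quantile normalization turned it to 0.26 (adjusted p = 0.159), so no direction can be given for Apom.

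**Figure D2:**
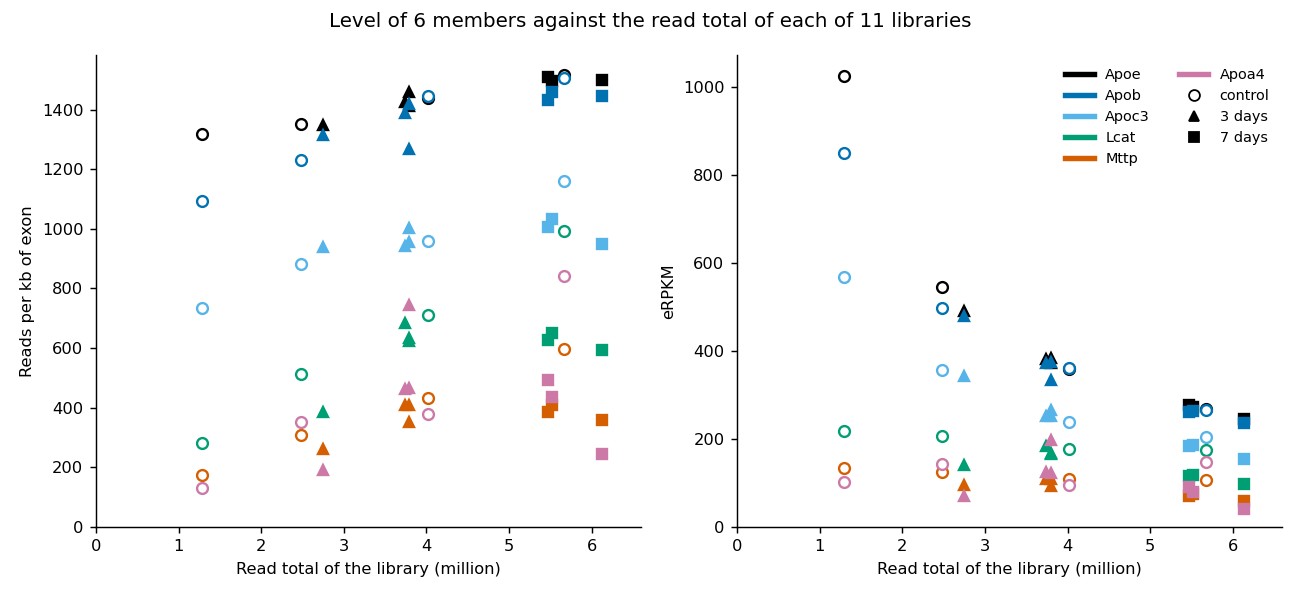
Reads per kilobase of exon (left) and eRPKM (right) of 6 members in each of the 11 libraries against the read total of the library, on linear axes; open circles are controls, triangles 3-day and squares 7-day livers. Apoe and Apob stay between 1094 and 1516 reads per kilobase at every depth and their eRPKM falls with it, whereas Mttp and Lcat gain reads with depth and sit lower at 7 days than in the control of 5670838 reads.

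Over the 10 genes the 3-day comparison gave log2 fold changes from -0.26 (Apoa1) to 0.0096 (Apoa4), with limma adjusted p from 0.509 to 0.994 and no unadjusted p under 0.05, and none of the 10 was called. Nor did the table call many genes there: 0% of the 14244 genes passed in the lower and 0.0421% in the higher direction. These were 0 and 6 genes, while 1718 had an unadjusted p under 0.05, and limma-voom on the recovered reads called 1. No member lay below the controls in every 3-day liver, as did 2.25% of all genes. In libraries of nearest size, control 1 and 3-day livers 2 to 4, Mttp was 108 eRPKM against 109, 93.1 and 108, and Lcat 177 against 183, 167 and 164.

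At 7 days against the same controls 2 of 10 members were called lower and 0 higher, beside 5.77% of all genes called lower and 18% called higher. Their median log2 fold change was -0.81, against 0.26 over all genes tested. Mttp, Lcat, Apoa4, Apoa5, Apob, Apoc3 and Apof, or 7 of 10, lay below the controls in every 7-day liver, beside 13.3% of all genes. This share has to be read with abundance, because the change at 7 days shifted with it across the table. The 92 genes with a mean of at least 800 reads per kilobase had a median log2 fold change of -0.79, the 478 genes from 400 to 800 one of -0.53, the 1110 genes from 200 to 400 one of -0.19, and the 4738 genes from 10 to 50 one of 0.56. The 5 members of the top class, Apob, Apoe, Apoa1, Apoc3 and Apoa5, ranged from -0.87 to -0.72, around its median. Lcat, Apoa4, Apof and Apom belonged to the class from 400 to 800, in which 31.8% of genes were called lower, and Mttp to that from 200 to 400, in which 20.3% were. Against the 2 deepest controls alone the median of the top class was -0.34, as was that of the 10 members. Mttp (-0.66) and Lcat (-0.68) were again the called members, beside 579 of 14244 genes called lower and 1406 higher. In that setting 13.3% of the class of Mttp and 20.9% of that of Lcat were called lower. In those classes 20.7% and 23.0% of genes had a lower fold change than Mttp and Lcat.

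Between 3 and 7 days 1 of 10 members, Mttp, was called lower, beside 5.31% of all genes called lower and 14% called higher; this comparison shares the 7-day livers with the one above. The median over members was -0.60 against 0.26 over all genes, and 8 of 10 lay below the 3-day livers in every 7-day liver, beside 13.8% of all genes. The exceptions were Apoa4 and Apom. These values too have to be read with abundance. The median over genes of at least 800 reads per kilobase was -0.62, that from 400 to 800 was -0.52 and that from 200 to 400 was -0.33. Every 7-day library was also larger than every 3-day library, so no livers of similar size could be set side by side. With depth as a covariate, Mttp was at -0.47 (adjusted p = 0.0220) in this comparison and no member was called.

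**Figure D3:**
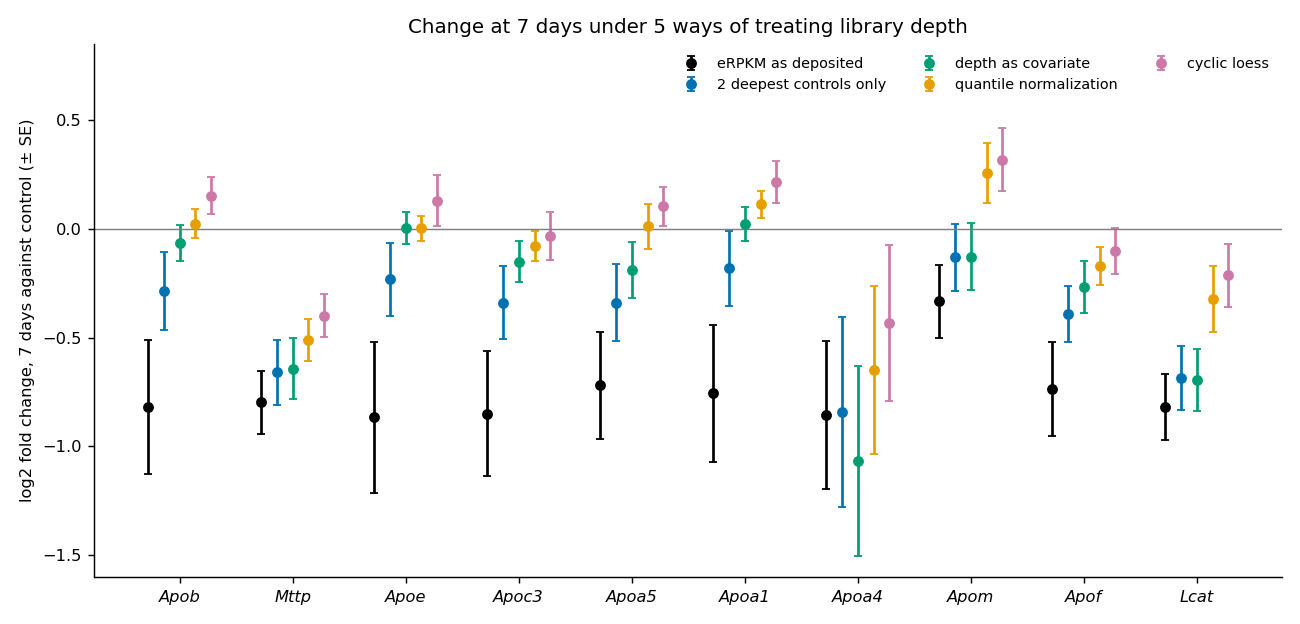
Log2 fold change (log2(eRPKM + 0.5) scale) of each of the 10 genes at 7 days against control under 5 treatments of library depth, with bars of 1 SE. Mttp and Lcat stay between -0.82 and -0.64 with the values as deposited, against the 2 deepest controls and with depth as a covariate, and lie at -0.51 and -0.32 under quantile normalization and -0.40 and -0.21 under cyclic loess. Apob, Apoe and Apoa1 lie at -0.82, -0.87 and -0.76 with the values as deposited and between -0.28 and -0.18 against the 2 deepest controls. With depth as a covariate, quantile normalization or cyclic loess they lie between -0.066 and 0.22.

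A second view ranks the genes of each library by eRPKM, with rank 1 the highest. Dividing by the library total does not change a rank. Mttp ranked 534, 505, 507 and 560 in the controls, 862, 601, 681 and 705 at 3 days and 821, 1100 and 926 at 7 days. All 3-day and all 7-day livers thus ranked Mttp behind all controls, while the 3- and 7-day livers overlapped. The exact permutation p was 0.0286 (two-sided) for each comparison with the controls, the smallest that 4 against 4 and 4 against 3 livers allow here, and 0.286 after Benjamini-Hochberg adjustment over 30 rank tests. Apof ranked between 149 and 207 in the controls, 169 and 298 at 3 days, and 234 and 290 at 7 days (exact permutation p = 0.0286 at 7 days, adjusted 0.286), and Lcat ranked 100 to 313, 181 to 459 and 292 to 359, with overlap. By rank, 1 of 10 members lay behind all controls at 3 days (beside 3.97% of all genes), 2 of 10 at 7 days (27.6%) and 0 of 10 behind the 3-day livers at 7 days (22.2%), so the share at 7 days lay below that of all genes. Apoa1 ranked 3 to 9 in the controls and 1 to 2 at 7 days (exact permutation p = 0.0571), Apom 137 to 297 and 91 to 142 (p = 0.0857), and Apoe 1 to 3 and 1 to 2. In control 2, the largest control library, Apom ranked 137, inside its 7-day range. The ranks were added after the data had been seen, and a rank also depends on every other gene of the library. Nor were ranks free of depth. Lcat ranked 313, 185, 165 and 100 in controls 4, 3, 1 and 2, in order of rising read total.

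**Figure D4:**
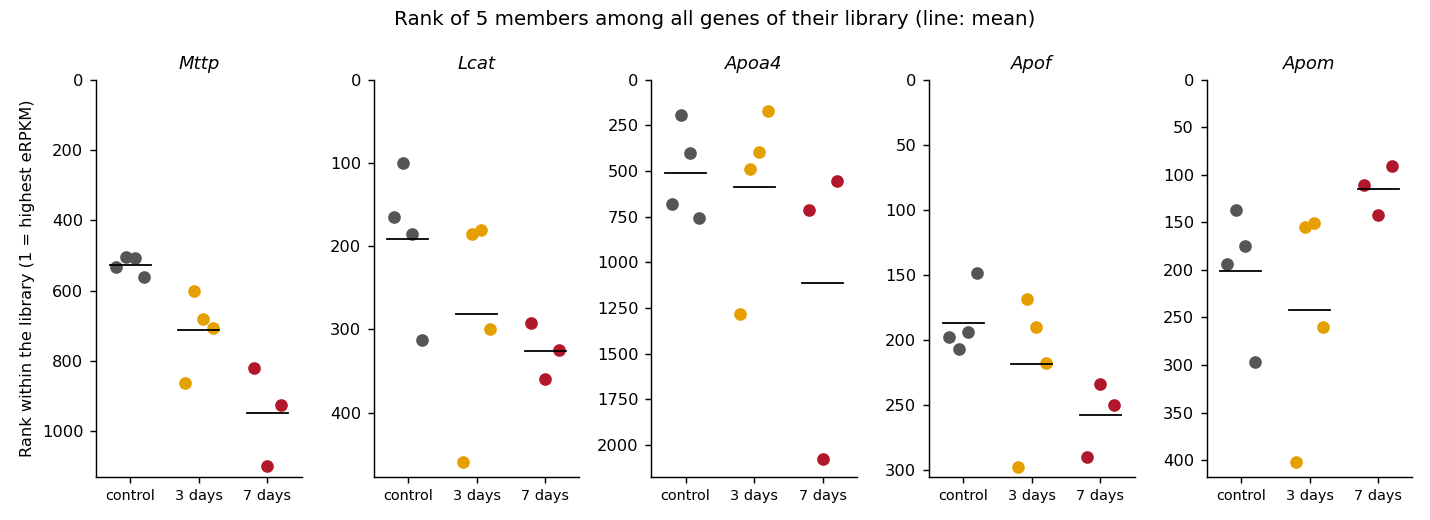
Rank of Mttp, Lcat, Apoa4, Apof and Apom among all genes of the library by eRPKM (linear axes, rank 1 at the top, a scale per gene) in 4 control, 4 three-day and 3 seven-day livers; lines are means. Mttp lies between 505 and 560 in controls, between 601 and 862 at 3 days and between 821 and 1100 at 7 days. Apom lies between 137 and 297 in controls and between 91 and 142 at 7 days. Control 2, the largest control library, has the 137, inside the 7-day range.

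Apob and Mttp act in the same step, so each member was also set against Apob in the same liver, as the log2 ratio of the eRPKM values. Of 27 exact permutation tests (9 ratios, 3 comparisons) 0 had an adjusted p under 0.05, with a lowest adjusted p of 1 at 3 days, 1 at 7 days and 0.771 between 3 and 7 days. The smallest p these tests can give is 0.0286 before adjustment, so a ratio that misses the threshold is not shown to be level. The log2 ratio of Mttp to Apob was -1.93 ± 0.56 in controls (SD, n = 4), -1.93 ± 0.27 at 3 days (n = 4) and -1.90 ± 0.09 at 7 days (n = 3), and that of Lcat was -1.21 ± 0.57, -1.24 ± 0.36 and -1.21 ± 0.06. Apob stayed near the upper level, and these ratios ran with library size among the controls. In controls 4, 3, 1 and 2, by rising read total, the plain ratio of Mttp to Apob was 0.158, 0.251, 0.300 and 0.397. In 7-day livers 1 and 3, of a size near control 2, it was 0.281 and 0.268. Equal means thus do not show that the genes changed together. Set against the 2 deepest controls alone, the ratios at 7 days were lower by 0.38 (Mttp) and 0.40 (Lcat) on the log2 scale, with no test at n = 2. The Apom to Apob ratio was -1.23 ± 0.50 in controls and -0.74 ± 0.11 at 7 days, a difference of 0.49 that did not pass (exact permutation p = 0.143). On the plain scale it was 0.612 in control 2, within the 0.557 to 0.645 of the 7-day livers.

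The other genes of the pathway were taken from lists by role. Among further apolipoproteins and HDL-bound proteins, 11 of 13 symbols were tested. At 7 days 5 were called lower and 0 higher (median log2 fold change -0.99 against 0.26 over all genes). Of all genes, 5.77% were called lower and 18% higher there, shares that stand beside each list count below as well. Against the 2 deepest controls 3 of the 11 were called lower. Saa4, the constitutive serum amyloid A of HDL, went from 162 ± 74.9 to 22.5 ± 3.27 eRPKM (SD, n = 4 and 3), a log2 fold change of -2.74 ± 0.28 (limma adjusted p = 1.71e-05). Pon1, the HDL-bound paraoxonase, went from 259 ± 109 to 59.8 ± 10.4 (-2.03 ± 0.29, adjusted p = 0.000177). In libraries of similar size it was at 176 eRPKM in control 2 and at 70.5 and 49.6 in 7-day livers 1 and 3. Saa1, an acute-phase member of that family, was called at -2.49 (adjusted p = 0.00631) but not against the 2 deepest controls (-1.73, adjusted p = 0.0707), and its near-identical paralogue Saa2 makes its count uncertain. Apoa2, the second protein of HDL, chosen after its values were seen because it shares the upper level of Apoa1, was called lower at -1.46 (adjusted p = 0.00396) and also against the 2 deepest controls (-0.85, adjusted p = 0.00485). In control 2 it was at 273 eRPKM and in 7-day livers 1 and 3 at 181 and 179, whereas Apoa1 there was at 255, 272 and 277.

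Of 12 tested genes for assembly, secretion and Apob mRNA editing, 1 was called higher and 3 lower at 7 days (median -0.56). Against the 2 deepest controls 0 were called higher and 1 lower. The editing pair moved apart. Apobec1, the deaminase that turns a codon of Apob mRNA into a stop and so yields the short apoB48, had 10.6 to 20.8 eRPKM in controls and 36.0 to 49.3 at 7 days, a log2 fold change of 1.28 ± 0.29 (limma adjusted p = 0.00416). A1cf, its RNA-binding cofactor, ranged from 91.9 to 109 in controls, from 72.7 to 105 at 3 days and from 39.1 to 46.3 at 7 days. This was a change of -1.24 ± 0.15 (adjusted p = 6.65e-05) that was -1.27 against the 2 deepest controls (adjusted p = 0.000884). The rise of Apobec1 was 1.15 in that setting and was not called (adjusted p = 0.0260). Which cells of the whole tissue carried this rise was not tested. Sar1b, a GTPase of the vesicles that carry lipoproteins out of the endoplasmic reticulum, went from 128 ± 25.9 to 60.5 ± 6.36 eRPKM (-1.06 ± 0.23, adjusted p = 0.00302; not called against the 2 deepest controls, adjusted p = 0.0396).

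All 6 genes of HDL formation and remodelling were tested, with 2 called higher and 2 lower at 7 days (median 0.24), and these 4 were called again against the 2 deepest controls. Lipg, the endothelial lipase that hydrolyses HDL phospholipid, lay between 6.97 and 33.1 eRPKM in controls, between 6.18 and 24.2 at 3 days and between 0.426 and 1.28 at 7 days (log2 fold change -3.68 ± 0.50, limma adjusted p = 0.000117). Lipc, hepatic lipase, named here after its values were seen, went from 78.7 ± 10.5 to 17.7 ± 0.648 (-2.11 ± 0.21, adjusted p = 1.47e-05). The cholesterol exporter Abcg1 rose from 4.94 ± 1.48 to 29.1 ± 3.71 eRPKM (2.49 ± 0.26, adjusted p = 2.4e-05), and the phospholipid transfer protein Pltp from 11.1 ± 6.50 to 50.5 ± 3.65 (2.33 ± 0.42, adjusted p = 0.000948). Pltp varied with the sex markers, at 15.6 and 17.6 eRPKM in controls with more Xist and 5.79 and 5.15 in the others. At 3 days the respective values were 9.63 and 11.1 against 4.44 and 5.03. Within the libraries with more Xist its log2 fold change at 7 days was 1.57 (limma adjusted p = 0.000305). With depth as a covariate it was 1.84 and not called (adjusted p = 0.0242). Abcg1 and Pltp are also made by macrophages, and the summed macrophage markers, 5 of 7 symbols in the table, moved with them. Their sum lay between 179 and 368 eRPKM in controls, between 208 and 399 at 3 days and between 651 and 729 at 7 days, where 4 of the 5 were called higher. The part of macrophages in these rises was not tested.

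Among lipases and their inhibitors 5 of 7 symbols were tested, and Lpl, lipoprotein lipase, was the 1 called (from 10.9 ± 2.95 to 23.6 ± 3.60 eRPKM, 1.11 ± 0.23, limma adjusted p = 0.00215). It was not called under quantile normalization (0.81, adjusted p = 0.0323) or against the 2 deepest controls (1.09, adjusted p = 0.0203). The cells that carried this rise were not tested either.

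Of 21 transcription factors known to act on apolipoprotein genes, 6 were called lower and 0 higher at 7 days (median -0.25). Beside them 5.77% of all genes were called lower and 18% higher, with 20.3% lower among genes from 200 to 400 reads per kilobase. Against the 2 deepest controls 5 of the 21 were called lower. Ppara, the fatty acid sensor of hepatocytes, lay between 112 and 129 eRPKM in controls, between 73.3 and 109 at 3 days and between 41.8 and 56.2 at 7 days (log2 fold change -1.35 ± 0.17, limma adjusted p = 7.02e-05; against the 2 deepest controls -1.27, adjusted p = 0.00166). Nr0b2, the small heterodimer partner that represses bile acid synthesis, went from 33.6 ± 11.3 to 8.23 ± 3.81 (-1.98 ± 0.34, adjusted p = 0.000711). It was called against the 2 deepest controls (adjusted p = 0.00172). It was not called with depth as a covariate (adjusted p = 0.0113) or in the libraries with more Xist (adjusted p = 0.0215). Nr1d1, the clock repressor REV-ERB alpha, was called at -1.34 (adjusted p = 0.00368) although its 7-day livers (10.2 to 27.4) overlapped the controls (26.3 to 48.9), and it was not called against the 2 deepest controls (adjusted p = 0.0120). Hnf4a, whose motif spelling was searched above, was at 159 ± 19.3 in controls and 124 ± 7.40 at 7 days, a difference of -0.35 ± 0.14 that did not pass (adjusted p = 0.0662) and turned to 0.16 under quantile normalization. At 3 days 0 genes of any of these lists were called by limma.

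Genes around the chromosome 9 cluster and around Apoe were near the table as a whole. Of 11 tested neighbours, 2 were called higher at 7 days and 0 lower, beside 18% and 5.77% of all genes, and their median was 0.33 against 0.26 over all genes (0.065 under quantile normalization, where that of the members was -0.038). Bcam, a laminin receptor near Apoe, rose from 1.76 ± 0.178 to 10.4 ± 2.89 eRPKM (2.24 ± 0.24, limma adjusted p = 2.35e-05), and Relb, an NF-kB subunit, from 1.08 ± 0.575 to 3.36 ± 0.509 (1.36 ± 0.31, adjusted p = 0.00460; not called against the 2 deepest controls, adjusted p = 0.0403). A list of 10 other abundant secreted hepatocyte proteins gave a median of -0.90 at 7 days, beside -0.81 for the members. Its 1 call was Ttr, transthyretin, a plasma carrier of thyroid hormone, from 280 ± 113 to 99.8 ± 3.78 eRPKM (-1.40 ± 0.26, adjusted p = 0.00110). Against the 2 deepest controls the medians of the 2 lists were -0.35 and -0.34, and under quantile normalization -0.10 and -0.04.

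**Figure D5:**
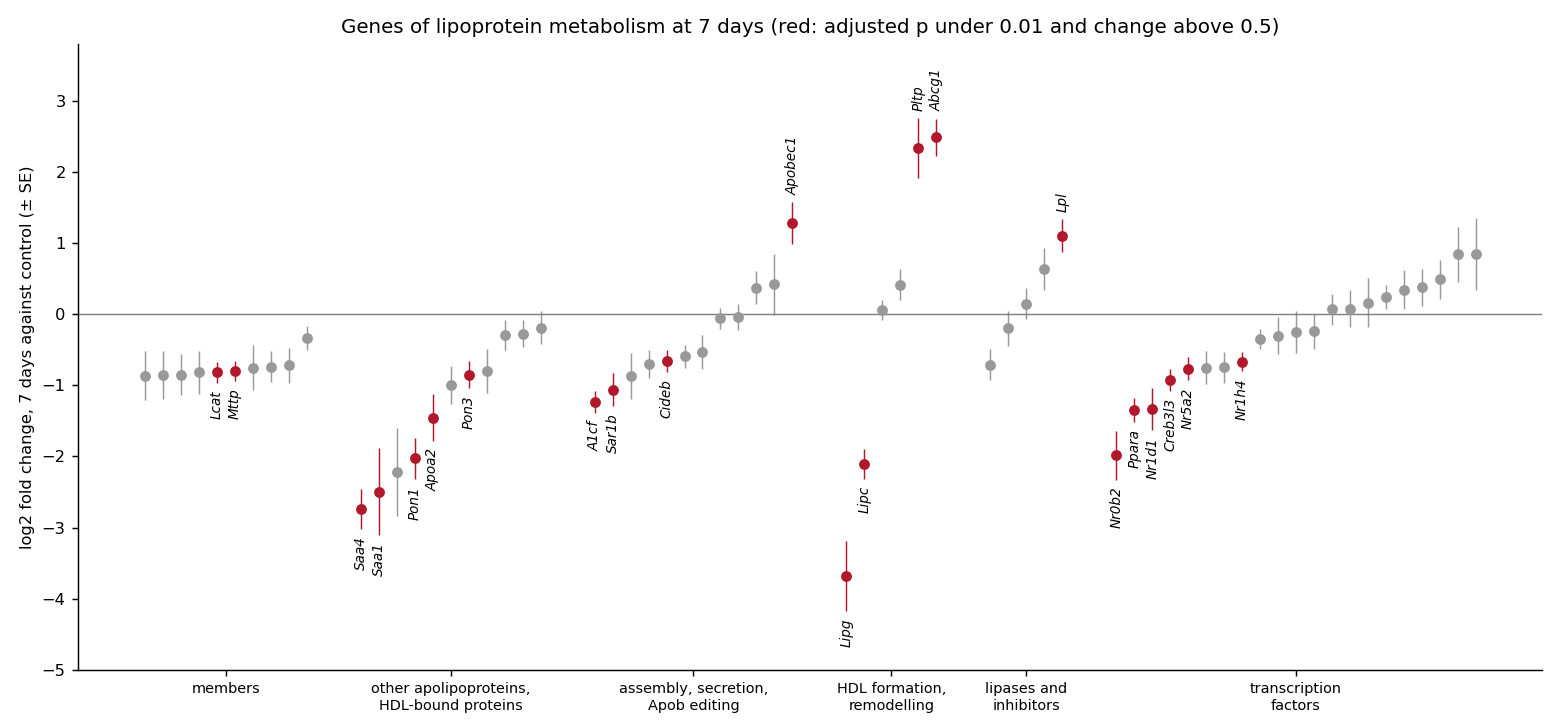
Log2 fold change (log2(eRPKM + 0.5) scale) at 7 days against control of each tested gene in the members and 5 other lists, with bars of 1 SE; red points are called and named. The members (median -0.81) hold 2 calls, both lower, while HDL formation and remodelling holds calls on both sides, from Lipg at -3.68 to Abcg1 at 2.49.

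The liver label was met by the markers, since the 5 hepatocyte markers summed to 955 eRPKM or more in every library (1147 to 3680 in the controls, then 1448 to 1885, then 955 to 1065), with 1 of 5, Ttr, called lower at 7 days. Cholangiocyte markers summed to 37.5 to 49.0, 40.5 to 84.5 and 61.5 to 111 eRPKM in the respective groups, with 1 of 5 called higher at 7 days, and stellate cell markers to 150 to 202, 138 to 275 and 99.9 to 113, with 1 of 5 called lower. At 7 days against control 0 of 4 endothelial markers (sums of 91.1 to 159, 106 to 193 and 96.3 to 113) and 0 of 5 lymphocyte markers (sums of at most 9.46) were called. Of the pancreatic acinar markers (sums of at most 3.79) 1 of 4 passed the filter and was not called, and of the adipocyte markers (at most 4.36) 0 of 2 passed the filter, so they were not tested. The part of cell composition in the members' changes was not tested.

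The 5 genes outside the set whose log2 values ran closest to the mean of the standardized members over the 11 livers, among 7015 candidates, were Hpd (Pearson correlation 0.991), Apoa2 (0.985), Apoh (0.981), Adh1 (0.977) and Orm1 (0.976). These 5 averaged 697 to 1222 reads per kilobase and are themselves abundant liver transcripts. The points share library size, with which the members' mean had a correlation of -0.931. Singly, log2 depth had a correlation of -0.999 with Apoe, -0.995 with Apob, -0.750 with Mttp, -0.711 with Lcat and -0.235 with Apoa4, so Apoa4 ran least with depth of the 10.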

How the data were processed

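Liver RNA of 11 mice (4 control, 4 at 3 days and 3 at 7 days of induction) was sequenced from TruSeq RNA v2 libraries, which do not mark strand. The submitters' processing notes name TopHat2 2.0.8, SAMtools, featureCounts 1.4.5-p1, DESeq2 and the build mm9; the gene annotation and the treatment of duplicate reads are not given in the sources used here. The deposited table holds eRPKM per liver (RPKM computed by the authors from exonic reads). It also holds the authors' mean normalized signal, log2 fold changes and adjusted p-values for their own comparisons, which were not used. Among the symbols, 26 had been turned into dates and could not be matched.

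Read totals were found from the steps of the deposited values: all 177553 values above 0, or 100%, came within 0.1 of a whole number of reads. The 14244 genes that reached 0.5 eRPKM in 3 or more libraries were fitted in 1 model of 3 groups with limma 3.58.1 (trend) in R 4.3.3 on log2(eRPKM + 0.5). Calls needed a Benjamini-Hochberg adjusted p under 0.01 and a log2 fold change over 0.5 in size, the study's thresholds. Ranks and ratios were tested by exact two-sided permutation. Its p is the share of all splits of the livers whose difference of means was at least as large in size. The Benjamini-Hochberg adjustment of these p-values used scipy 1.17.1. The fit was tested on simulated reads that rose in proportion to library size, without the upper level described above. That test therefore cannot show how unequal depth affects calls here. Replicates are separate livers, and p-values measure the spread between them.

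The members and lists were chosen with earlier results of these data known. All members were named. From each other list the text names the 3 genes with the largest change among those called at 7 days, and the 5 genes most correlated with the members; exceptions are marked. Some genes are not reported here. Promoters came from RefSeq, and locations from the mm9 annotation GENCODE M1. Alternatives covered the pseudocount, filter, normalization, variance model, covariates, limma-voom on recovered reads and the omission of each liver; ranks and depth-matched livers were added after the data were seen.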

Additional observations from a re-analysis of the deposited data

Results flagged for a closer look

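Apoc3 at 342 eRPKM and Apoe at 491 eRPKM in 3-day liver 1 stood apart from the other 3-day livers (252 to 265 and 372 to 384 eRPKM) by more than Dixon's 95% critical value for 4 samples. These were 2 of 20 groups of 4 livers tested, where chance gives about 5%. That library had the lowest read total of the 3-day livers (2746582), and Apoe there had 1349 reads per kilobase, close to the 1412 to 1458 of the others.

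The change of Mttp between 3 and 7 days, -0.58 on the log2 scale (limma adjusted p = 0.00882), differed between the induction times by a direct test, and was the 1 member to do so. Its values were 94.8, 109, 93.1 and 108 eRPKM at 3 days and 74.3, 58.6 and 70.2 at 7 days.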

How the results depend on the processing

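At 7 days against control 2 members were called (Mttp, Lcat), but 1 under quantile normalization (Mttp), 0 under cyclic loess, 1 in the libraries with more Xist than Ddx3y (Lcat) and 5 where an adjusted p under 0.05 alone was asked for. Leaving out single livers gave 2 to 6 calls, with 6 (Apoa5, Apob, Apoc3, Apof, Lcat and Mttp) without control 2, the largest control library. Over all genes, 2449 were called higher and 763 lower without control 2. At an adjusted p under 0.05 alone 3969 and 1421 were, and in the libraries with more Xist 1552 and 617. Quantile normalization moved calls over all genes from 2561 higher and 822 lower to 1857 and 1821, cyclic loess to 1709 and 1273, and median-ratio size factors to 1951 and 1254. The median log2 fold change over all genes was 0.26, and -0.077, -0.018 and 0.025 under these 3 scalings.

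Between 3 and 7 days 1 member was called (Mttp), but 0 without the filter, without the variance trend, under quantile normalization or cyclic loess, with the replicate block, with depth or Xist as a covariate, and in the libraries with more Xist. There were 5 calls when the compared groups were fitted alone (Apoa5, Apob, Apoc3, Apoe and Apof), 2 under limma-voom, and 3 at an adjusted p under 0.05. Over all genes these settings called 1686 higher and 714 lower, 2713 and 891, and 3621 and 1464. Leaving out single livers gave 0 to 1. At 3 days the count stayed at 0 in every alternative.

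Some fold changes, none of them called, changed sign. At 3 days against the 2 deepest controls they were 0.32 (Apoa1), 0.34 (Apoa5), 0.32 (Apob), 0.32 (Apoc3), 0.39 (Apoe), 0.19 (Apof) and 0.079 (Apom). Quantile normalization gave -0.047 (Apoa4), 0.075 (Apoa5), 0.024 (Apob) and 0.016 (Apoe), cyclic loess -0.028 (Apoa4) and 0.0070 (Apoa5), the depth covariate -0.046 (Apoa4) and 0.098 (Apoa5), median-ratio size factors -0.014 (Apoa4), and the libraries with more Xist 0.15 (Apoa5) and 0.013 (Apof). Without single livers the 3-day ranges were -0.53 to 0.051 (Apoa1), -0.23 to 0.27 (Apoa4), -0.21 to 0.17 (Apoa5), -0.47 to 0.092 (Apob), -0.40 to 0.087 (Apoc3), -0.53 to 0.11 (Apoe) and -0.30 to 0.070 (Apof).

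At 7 days against control, quantile normalization gave 0.11 (Apoa1), 0.013 (Apoa5), 0.025 (Apob), 0.0020 (Apoe) and 0.26 (Apom), cyclic loess 0.22 (Apoa1), 0.10 (Apoa5), 0.15 (Apob), 0.13 (Apoe) and 0.32 (Apom), and the depth covariate 0.023 (Apoa1) and 0.0032 (Apoe). Between 3 and 7 days, quantile normalization gave 0.12 (Apoa1), 0.00064 (Apob) and 0.34 (Apom), the depth covariate 0.075 (Apoa1) and 0.022 (Apoe), and cyclic loess 0.38 (Apoa1), 0.096 (Apoa5), 0.28 (Apob), 0.12 (Apoc3), 0.28 (Apoe), 0.041 (Apof), 0.43 (Apom) and 0.033 (Lcat).

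Among log2 ratios to Apob, the 2 deepest controls gave -0.24 for Apom at 3 days, and -0.38 (Mttp) and -0.40 (Lcat) at 7 days, where Lcat without a pseudocount gave -0.00020. Without single livers the ranges were -0.24 to 0.20 (Mttp), -0.28 to 0.17 (Lcat) and -0.13 to 0.27 (Apom) at 3 days, -0.22 to 0.22 (Mttp) and -0.25 to 0.20 (Lcat) at 7 days, and -0.11 to 0.080 (Mttp) and -0.14 to 0.11 (Lcat) between 3 and 7 days. The ratios against the 2 deepest controls have no test. The causes of these changes were not tested.

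Replicate numbers did not pair the livers, since same-numbered livers had correlations of deviations from -0.222 to 0.269. With the replicate block 2 members were called at 7 days against control. The eRPKM of the most abundant members ran inversely to library size, and for these genes the unequal depths of the groups cannot be told apart from the groups. Among the 4 controls Mttp and Lcat ran inversely to library size as well.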
